A study of Mus musculus with 6 samples.

Results

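Interferon-stimulated genes were followed in mouse embryonic stem cells that cannot process microRNAs, with a control siRNA or with microRNAs of the miR-290 family given back to them. A set of 40 gene symbols was drawn up, and its members were the probe sets of the array that the platform's annotation assigns to 1 of these symbols alone. By that rule 38 of the 40 genes, among 18193 genes on the array with such a probe set, were represented, by 66 probe sets in all. Isg15 shares its probe set with another gene symbol and Ifi44 had none of its own. The expression of neither was analysed here, and both enter only the promoter search. The set was chosen by name, but selected on results of this same comparison. The differences between the groups are therefore given as a description of the members, and no test of the set as a whole was made.

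The cells were an undifferentiated Dicer -/- embryonic stem cell line, named 27H10 in the study's title and 27H in the sample titles. All 6 samples lack Dicer, the enzyme that cuts mature microRNAs out of their precursors, and all were examined 24 h after transfection. In the 3 control samples the transfected RNA was siRL, an siRNA directed at Renilla luciferase, which mouse cells do not carry. In the other 3 it was a set of Dharmacon mimics of the mmu-miR-290 cluster. The study rests on a single cell line, nothing in the labels says whether replicates were separate cultures, and no sample without a transfected RNA and no sample with Dicer was analysed here, so the p-values below measure only the spread between these arrays, which may be technical.

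Interferon-stimulated genes are switched on when a cell senses foreign nucleic acid or receives interferon. Sensors of double-stranded RNA in the cytoplasm lead to transcription of interferon, and interferon acts through its receptors and JAK kinases to bring STAT factors and Irf9 to a DNA motif called the interferon-stimulated response element (ISRE). The products block viral entry, degrade or sequester viral RNA, and feed back on the pathway. Embryonic stem cells are known to make little interferon themselves and to keep some of these genes, such as the Ifitm family, highly expressed without it.

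The transfected RNAs are shown first, since they are the only labelled difference between the groups. The labels name the cluster and not the single mimics. RefSeq on GRCm38.p6 gave the 3′ arm of 6 of the 7 of its microRNAs looked for (not shown is miR-292a-3p), all on the plus strand of chromosome 7, and their seeds (bases 2 to 8, in capitals) pair with targets. Of the 6 shown, 3 share the seed AAGUGCU and 5 have a seed that begins with AAGUGC.
mmu-miR-290a-3p: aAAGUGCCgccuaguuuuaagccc
mmu-miR-291a-3p: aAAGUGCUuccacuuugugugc
mmu-miR-291b-3p: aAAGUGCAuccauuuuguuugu
mmu-miR-293-3p: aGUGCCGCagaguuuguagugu
mmu-miR-294-3p: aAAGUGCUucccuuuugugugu
mmu-miR-295-3p: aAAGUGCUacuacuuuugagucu

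Among the interferon-stimulated genes 7 fell where miR-290 mimics had been transfected, and 0 rose. These were Xaf1, Zbp1, Ifi35, Nmi, Parp9, Parp14 and Rtp4, with log2 fold changes (mean of the mimic arrays minus mean of the control arrays) between −1.46 and −0.62 (given below with their standard errors, SE), and of −3.13 for Rtp4, whose mimic values lay at the floor. The remaining members did not pass, and they ranged from the 3 Ifitm genes, among the brightest on the array and nearly level between the groups, to members whose values lay at the floor. Each gene was read through its brightest probe set, and a call means that limma's p-value, after Benjamini-Hochberg adjustment, was under 0.05 over all 29167 tested probe sets. Of the 38 members 35 had a mean log2 intensity of at least 4 on their brightest probe set and were tested; Mx1, Mx2 and Ifi47 were below that and were not. The 7 of 35 compare with a background of 1.38% of the 13815 tested genes called lower and 0.456% called higher; because the members were chosen with this comparison known, nothing is read from that excess. Because whole cultures were measured, fewer expressing cells and less RNA per cell cannot be told apart.

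Counted by probe set, 57 of the 66 were tested, 9 were called lower and 0 higher, where 0.946% of all tested probe sets were called lower and 0.343% higher. In limma 23 of the member probe sets were lower and 1, of Tor3a, was higher at an unadjusted p under 0.05, a threshold that 20.1% of all tested probe sets passed in one direction or the other. The 9 belong to 8 genes, since Dtx3l was called on its dimmer probe set only. The median log2 fold change of the 35 member genes was −0.41, beside −0.01 over all tested genes (−0.66 for the members without control replicate 2), and 26 of the 35 (74.3%) were below 0, beside 52.0% of all. In 19 members all 3 mimic values lay under all 3 control values, beside 19.3% of all tested genes, and in 3 (Ddx58, Irf3 and Tor3a) they lay above, beside 16.2%. Rtp4, Oasl2 and Dhx58 had a mean log2 under 4 on the mimic arrays, so they were tested only through their control arrays. All 3 count among the 26, and Rtp4 and Oasl2 also among the 19. Usp18, in turn, was tested only through its mimic arrays. The number of calls depended on how the spread between arrays was estimated. When limma's prior was instead allowed to vary with brightness and was fitted robustly (the level-dependent robust prior), it called 14 member genes lower and 0 higher, beside 9.43% and 6.2% of all tested genes. With any 1 of the 6 arrays left out the standard setting called 0 member probe sets, whereas with the level-dependent robust prior 16 to 19 were lower, all 9 among them each time, a combination tried only after the data were seen. Those fits called 1971 to 2844 probe sets in all, and the standard ones with 1 array left out called 0 or 1.

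**Figure D1:**
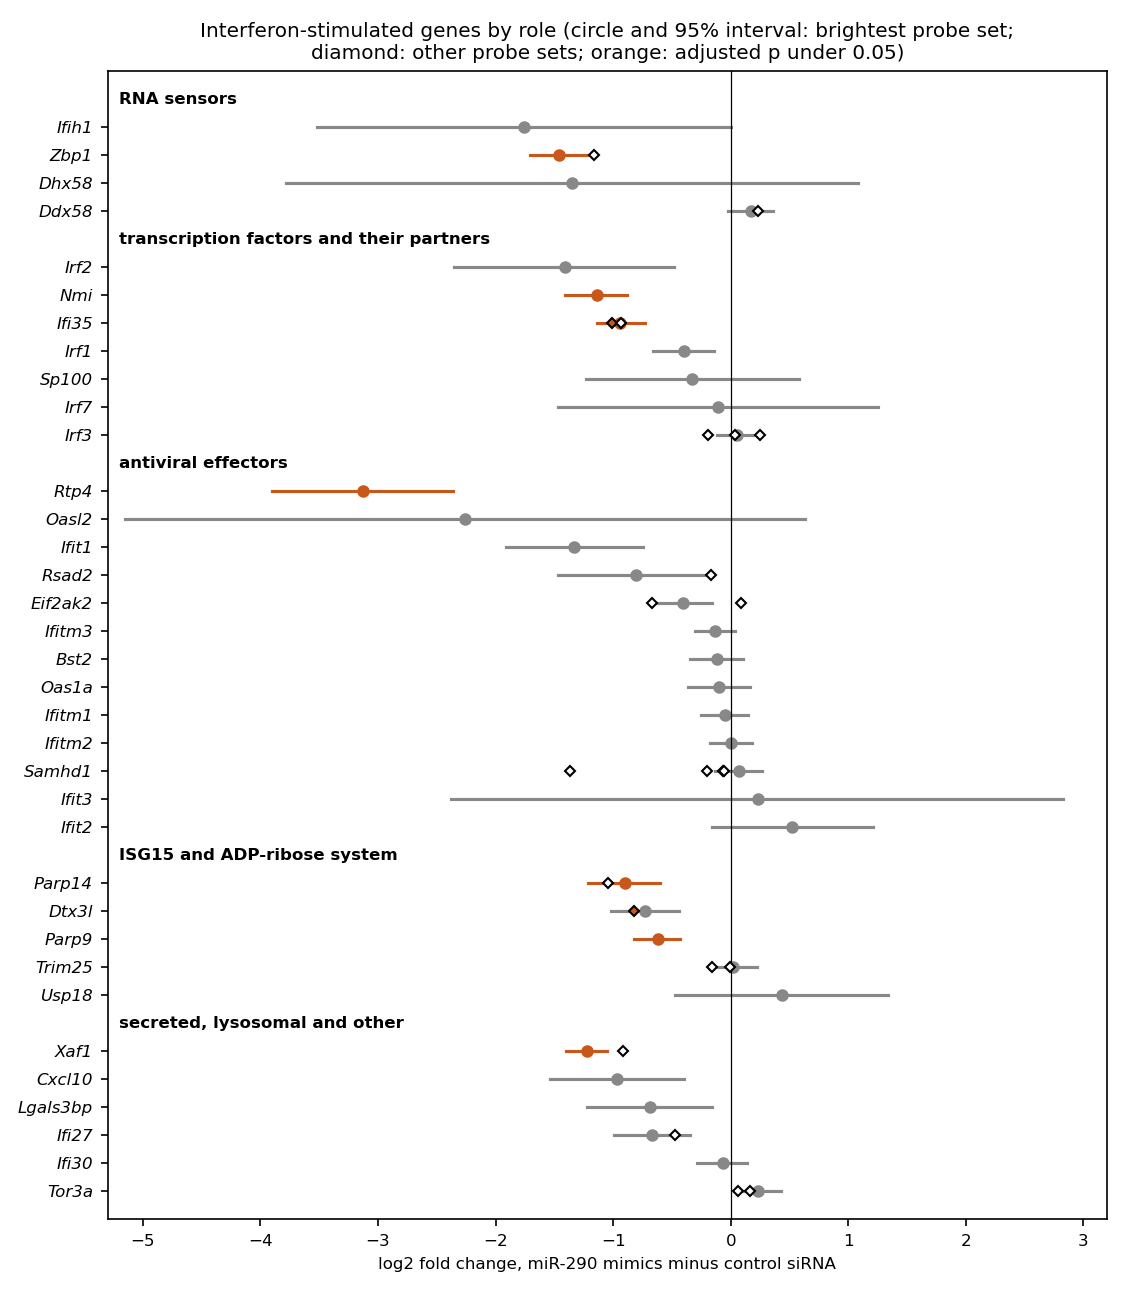
Log2 fold change (miR-290 mimics minus control siRNA, horizontal axis) of the 35 tested interferon-stimulated genes, grouped by role. Circles and lines are the brightest probe set with its 95% interval, diamonds are further probe sets, and orange marks an adjusted p under 0.05; Rtp4 lies farthest left at −3.13, and Ifit2 farthest right at 0.52 with an interval across 0.

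Of the 4 sensors of foreign nucleic acid, Zbp1 fell and the others did not pass. Zbp1 binds Z-form nucleic acid and can start cell death. The controls read 1090.3, 1006 and 953 and the mimic arrays 346, 360.2 and 402. The groups were far apart, 2.75-fold (−1.46 ± 0.098 SE on the log2 scale with 3 arrays each, limma adjusted p = 0.0231). A dimmer Zbp1 probe set gave −1.16 with overlapping groups and did not pass, and averaging both ended the call (limma adjusted p = 0.113).

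The 3 RIG-I-like receptors gave different values. Ddx58 encodes RIG-I, which recognises RNA with a triphosphate at its 5′ end, and it was the only sensor with all mimic values above the controls: 513, 541 and 558 against 579, 607 and 629.9 (log2 fold change 0.17, 95% interval −0.02 to 0.36). Ifih1, which encodes the long-RNA sensor MDA5, was dim, at 72.8, 81.0 and 58.5 against 43.3, 28.6 and 7.14 (−1.76; limma adjusted p = 0.249). Dhx58 encodes LGP2, a regulator of both, and 1 of its mimic arrays at 3.45 set its value (43.9, 37.8 and 38.4 against 27.9, 40.1 and 3.45; −1.35, interval −3.78 to 1.08). With an offset of 16 added to every intensity, which damps differences near the floor, Ifih1 was at −1.13 and Dhx58 at −0.62.

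Among the transcription factors and their partners, Ifi35 and Nmi fell while none of the 4 interferon regulatory factors passed. Nmi and Ifi35 encode proteins that bind each other. Nmi read 1747, 1866 and 1563 against 809, 815 and 718, without overlap (−1.14 ± 0.10 SE, limma adjusted p = 0.0292). Ifi35, the brightest of the members that fell, had 5108, 5123 and 4855 against 2508, 2822 and 2555 (−0.94 ± 0.081 SE, limma adjusted p = 0.0287). Its brightest probe set carries the array maker's mark for probes shared between transcripts, as does a second one, which gave −0.93 (limma adjusted p = 0.0529). The one without such a mark gave −1.01 and was called (limma adjusted p = 0.0368). Among the other members, the brightest probe sets of Irf2, Irf3, Trim25 and Tor3a carry such a mark too.

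Irf1, an activator that interferon gamma induces quickly, stood at 1393, 1593 and 1397 against 1106, 1204 and 1022. Its groups did not overlap, and it was called under the level-dependent robust prior (limma adjusted p = 0.0105) but not in the standard setting (−0.40 ± 0.10 SE, limma adjusted p = 0.124). Irf2, which competes with Irf1 for its sites, was dim at 94.8, 102 and 74.7 against 37.3, 20.0 and 51.2 (−1.41, limma adjusted p = 0.127). Its groups did not overlap either, and it too was called under the level-dependent robust prior (limma adjusted p = 0.0275). Irf3, the factor that sensors activate first, was level: 647, 619.5 and 653 against 661, 653 and 674 (0.05, 95% interval −0.12 to 0.22). Irf7, which amplifies interferon production, was near the floor, between 10.1 and 42.0 on all 6 arrays. Sp100, a protein of nuclear bodies, lay between 15.3 and 33.2. Neither Irf7 nor Sp100 can be placed above or below its controls at this brightness.

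Of 16 antiviral effectors with a probe set 13 were tested, and Rtp4 alone fell. Rtp4 encodes a receptor-transporting protein that interferon induces. The controls read 132, 104 and 113 and the mimic arrays 18.6, 14.4 and 8.63, and the groups did not overlap. The mimic mean of 13.9 lies under the filter's intensity of 16, so Rtp4 was tested only through its control arrays. Its log2 difference (−3.13 ± 0.30 SE, limma adjusted p = 0.034; −2.15 with the offset of 16) is therefore measured against values at the floor, and neither its size nor its rank among the members is settled. A dimmer Rtp4 probe set, below the filter, read 14.3, 19.8 and 33.8 against 5.67, 0.835 and 5.04.

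**Figure D2:**
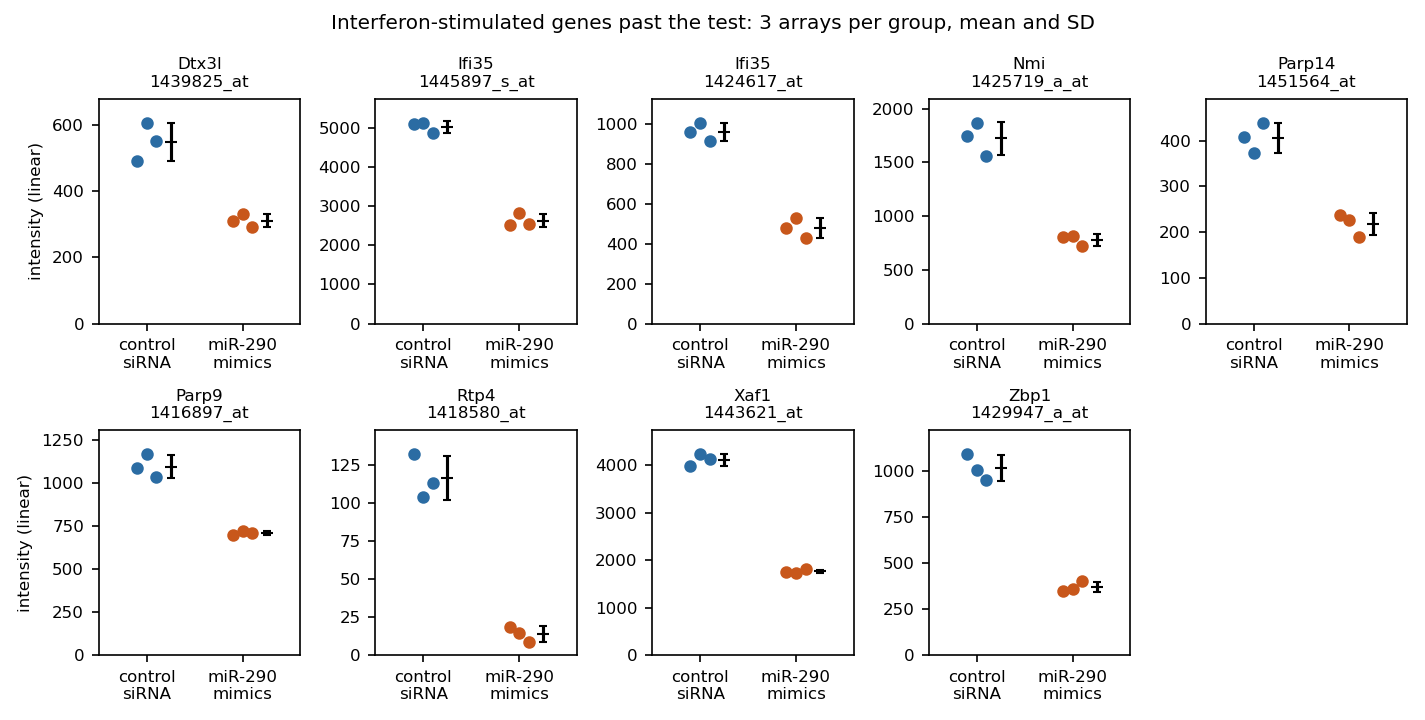
Linear intensity (vertical axes, from 0) on each of 3 control and 3 mimic arrays for the 9 called member probe sets, with mean and SD beside the points. In every panel the 3 mimic values lie below the 3 control values, from Rtp4 (116 against 13.9) to Parp9 (1094 against 709).

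None of the 3 Ifit genes, whose products bind viral RNA and stop its translation, passed the test. Ifit1 read 209, 291 and 252 against 128, 77.3 and 97.1, with no overlap (−1.33 ± 0.23 SE; limma adjusted p = 0.0666 in the standard setting and 0.00219 with the level-dependent robust prior). Ifit2 read 83.5, 51.7 and 50.2 against 68.3, 87.6 and 107, with overlapping groups and a difference of the opposite sign (0.52, 95% interval −0.16 to 1.21). Ifit3 was at the floor and scattered, from 5.07 to 58.7, so no difference could be measured.

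The Ifitm genes, whose membrane proteins hinder viral entry, were the brightest members and nearly equal in both groups. Ifitm1 read 18588, 17028 and 18342 against 17570, 16575 and 18014. Ifitm2 read 14230, 15002 and 14959 against 14902, 15209 and 14199. Ifitm3 read 18273, 17482 and 17997 against 16192, 15991 and 16814. The intervals of the log2 differences were −0.25 to 0.15 for Ifitm1, −0.18 to 0.18 for Ifitm2 and −0.30 to 0.04 for Ifitm3, whose groups did not overlap. A fall of the size seen in Parp9 (−0.62), the smallest of the 7, lies outside all 3. Measured against all genes on the array with the control siRNA, Ifitm1, Ifitm2 and Ifitm3 stood at percentiles 99.3, 98.9 and 99.3.

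Other effectors with a clear signal differed little. Oas1a, an oligoadenylate synthetase that activates RNase L, read 2679, 2418 and 2543 against 2345, 2646 and 2166, with overlap (−0.10, 95% interval −0.36 to 0.16). Bst2, which tethers budding virus to the cell, read 475, 510.1 and 470.4 against 432, 420.1 and 484 (−0.12, interval −0.35 to 0.10). Samhd1, which breaks down deoxynucleotides, gave 0.07 and −0.07 on its 2 brightest probe sets and −0.06 and −0.2 on 2 dim ones, all with overlapping groups. A further dim probe set gave −1.37 with no overlap (91.2, 200.3 and 132 against 42.3, 39.7 and 82.9) and so differed from the others. It did not pass in the standard setting (limma adjusted p = 0.161) but was called with the level-dependent robust prior (limma adjusted p = 0.0252).

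Eif2ak2, the kinase PKR that halts translation on double-stranded RNA, gave 3 different values. The brightest probe set read 288, 266 and 314 against 234, 211 and 207 (−0.41, limma adjusted p = 0.108). A further one of like brightness gave −0.67 (limma adjusted p = 0.0605) and a dim one 0.09. Rsad2, which encodes viperin, read 209.7, 179 and 183 against 160.3, 92.3 and 86.3 (−0.81, limma adjusted p = 0.179). It was called only with the level-dependent robust prior (limma adjusted p = 0.0445), and its dimmer tested probe set gave −0.17. Oasl2 was lower on all mimic arrays, at 87.7, 50.5 and 75.6 against 2.499, 47.6 and 25.6, but 1 array near the floor widened its interval to −5.15 to 0.63.

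Mx1 and Mx2, dynamin-like GTPases that trap viral particles, and Ifi47, an immunity-related GTPase, stayed under an intensity of 32 on every array. Mx1 read 31.2, 5.04 and 2.24 against 3.55, 4.25 and 2.11. Mx2 was at or under 8.76 and Ifi47 at or under 18.8. Both Mx genes are annotated as transcribed pseudogenes in the C57BL/6J reference used here. Such values cannot be told from background.

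In the group that attaches ISG15 or ADP-ribose, Parp9 and Parp14 fell, and Dtx3l fell on 1 of its 2 probe sets. Parp9 and Dtx3l encode partners that form an ADP-ribosylating ubiquitin ligase, and Parp14 a related transferase of single ADP-ribose units. Parp9 read 1086, 1165 and 1032 against 697, 722 and 709 (−0.62 ± 0.078 SE, limma adjusted p = 0.0444). Parp14 read 408, 372 and 439 against 237, 226 and 190.1 (−0.90 ± 0.12 SE, limma adjusted p = 0.0457). For Dtx3l the dimmer probe set, at 489, 605 and 551 against 309, 329.8 and 291, was called (−0.82, limma adjusted p = 0.0457), and the brighter one, at 1185, 1022 and 1026 against 596, 727 and 632, missed the threshold (−0.73, limma adjusted p = 0.0601). The groups did not overlap on these 4 probe sets, but they did on a dim further one of Parp14 (−1.04, limma adjusted p = 0.451). The Parp14 call was lost on averaging its probe sets (limma adjusted p = 0.192) and with quantile normalization (0.0577). These are the calls nearest the threshold: centring each array on its median ended those of Parp9, Parp14 and Dtx3l, with that of the dimmer Ifi35 probe set.

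Trim25, the ubiquitin ligase that acts on RIG-I, was level. Its brightest probe set read 7422, 7362 and 7807 against 8036, 7673 and 7218 (0.02, 95% interval −0.18 to 0.22), and the other 2 gave −0.01 and −0.16. Usp18, the protease that removes ISG15 and dampens the receptor, was at the floor, from 10.2 to 25.5.

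Of the 6 members with secreted, lysosomal and other products Xaf1 fell, with the smallest adjusted p of any member. Xaf1 encodes a partner of the apoptosis inhibitor XIAP. The controls read 3974, 4224 and 4134 and the mimic arrays 1749, 1725 and 1805, 2.34-fold lower and tightly grouped on each side (−1.22 ± 0.069 SE, limma adjusted p = 0.0196). A dimmer probe set gave −0.92 without overlap (limma adjusted p = 0.0899). Cxcl10, a chemokine that draws T cells, read 129.7, 199.7 and 141 against 64.3, 80.1 and 94.1 (−0.97, limma adjusted p = 0.103). Ifi27, a small membrane protein, read 499, 416 and 446 against 276, 323 and 255 (−0.67, limma adjusted p = 0.0733). Cxcl10 and Ifi27 were called with the level-dependent robust prior, as limma adjusted p-values of 0.0196 and 0.00546. A dimmer Ifi27 probe set gave −0.47 with overlapping groups. It was not called in the standard setting (limma adjusted p = 0.409) or with that prior (limma adjusted p = 0.215).

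The last 3 of that group differed in sign. Lgals3bp, a secreted glycoprotein, read 158, 108 and 112 against 90.3, 79.5 and 63.4 (−0.69, limma adjusted p = 0.16). Ifi30, a thiol reductase of lysosomes, was level at 1467, 1689.7 and 1661 against 1534, 1502 and 1533 (−0.07). Tor3a, a torsin-family ATPase, was the clearest difference upward among the members, at 721, 666 and 717 against 826, 865 and 776, but did not pass (0.23, 95% interval 0.03 to 0.43, limma adjusted p = 0.207), and its other 2 probe sets gave 0.16 and 0.06.

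**Figure D3:**
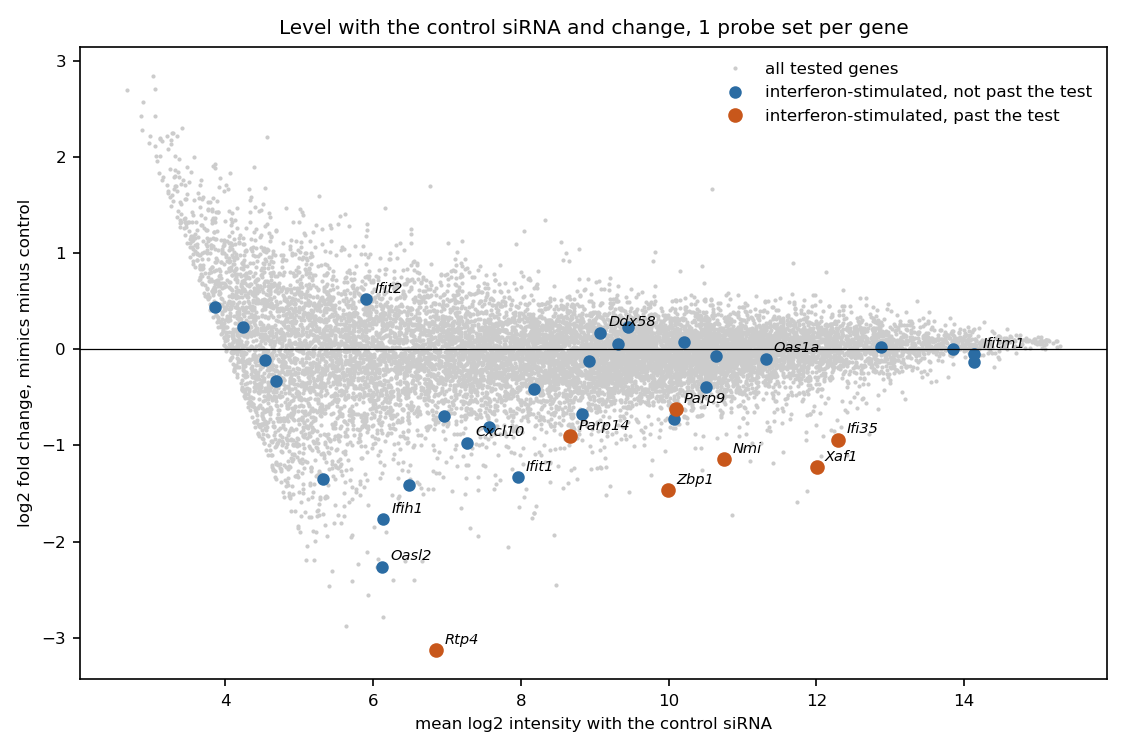
Mean log2 intensity with the control siRNA (horizontal axis) against the log2 fold change (vertical axis), 1 point per gene, for all 13815 tested genes in grey and the 35 interferon-stimulated genes in colour. Orange points, past the test, run from Rtp4 at −3.13 to Parp9 at −0.62; the blue points at the far right are the Ifitm genes, near 0.

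Members that fell and members that did not pass were found at high and at low brightness. With the control siRNA 14 of the 38 genes stood at or above percentile 75 of all genes and 14 stood under percentile 50. Of the 17 tested members with a control mean of at least 500, 5 fell (Xaf1, Zbp1, Ifi35, Nmi and Parp9), and of the 18 dimmer ones 2 (Parp14 and Rtp4). The other bright members were Ifitm1, Ifitm2, Ifitm3, Trim25, Oas1a, Ifi30, Irf1, Samhd1, Dtx3l, Irf3, Ddx58 and Tor3a. The level is a measure the choice of members did not use, and it is given as a description. The calls come from the comparison on which the members were chosen. Over all tested genes 1.38% were called lower, and that share was not computed by brightness, so nothing is read from these counts.

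Some members are neighbours in the GRCm38.p6 annotation. Parp14, Dtx3l and Parp9 follow each other with 0 genes between them, and the Dtx3l and Parp9 models overlap. All 3 were lower with the mimics, on 3 of 3 arrays each. The Ifitm2, Ifitm1 and Ifitm3 genes likewise adjoin and gave differences of 0.00, −0.05 and −0.13. Ifit2 and Ifit3 adjoin, with Ifit1 3 genes further on, and they gave 0.52, 0.23 and −1.33, none of which passed. Members of a family have similar sequences, and how far their probe sets hybridise with each other's transcripts was not tested.

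**Figure D4:**
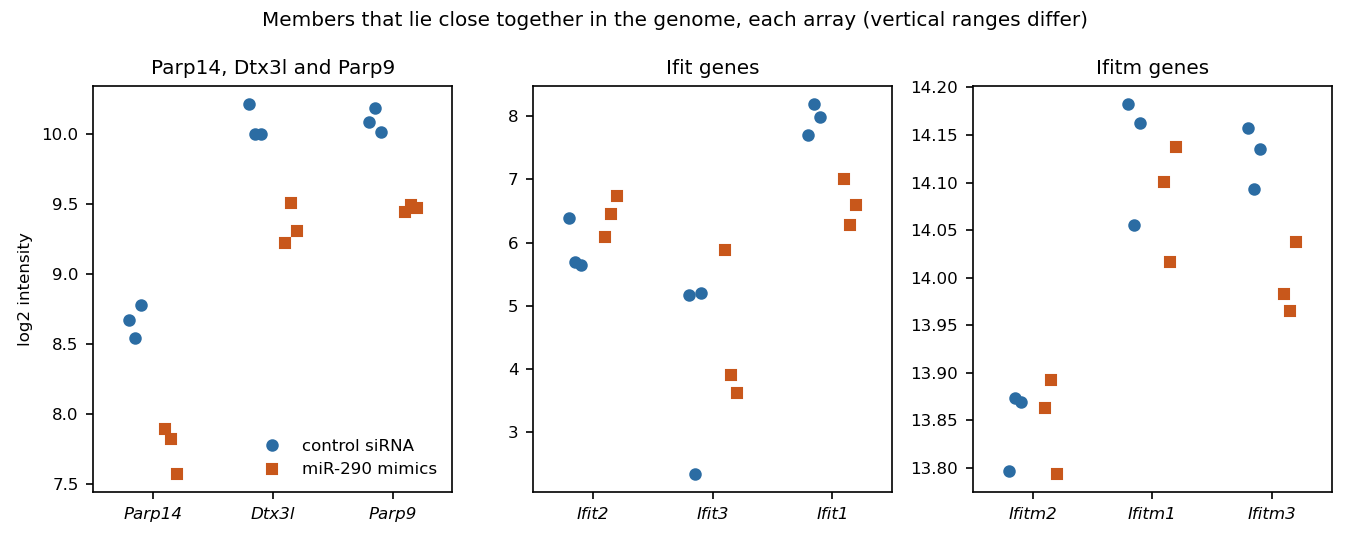
Log2 intensity (vertical axes, with ranges that differ between panels) on each array for 3 groups of neighbouring members, control siRNA as blue circles and miR-290 mimics as orange squares. The mimic squares lie under the control circles for Parp14, Dtx3l, Parp9, Ifit1 and, by a small margin, Ifitm3, whereas those of Ifitm1 and Ifitm2 overlap the circles.

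The promoters were searched for the motifs that interferon factors bind. The members were named as interferon-stimulated genes, which such factors switch on. A higher share than in all promoters may follow from that choice, so nothing is read from it. RefSeq windows of 300 bases, from 250 before to 50 after the start, were held for 30 of the 40 members, in 33 windows. The ISRE core was spelled GAAANNGAAA and the STAT site TTCNNNGAA, on either strand. The ISRE core lay in 13 of the 33 member windows (39.4%), beside 3.44% of all 32851 windows, and the STAT site in 9 (27.3%), beside 8.3%. Of the 7 genes that fell only Ifi35, Nmi and Xaf1 had a window: 0 of these 3 held the ISRE core and 1, Ifi35, the STAT site. Of the 24 tested members with a window that were not called, 12 held the ISRE core and 8 the STAT site. The 12 were Ifih1, Ddx58, Cxcl10, Oas1a, Ifitm2, Ifitm3, Irf2, Bst2, Rsad2, Eif2ak2, Ifit3 and Ifit1. The remaining member window with the ISRE core was that of Isg15, whose expression was not analysed here. A match is not evidence of binding, and its absence says only that these letters are not in this window.

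Of the windows, 3 are shown on the strand of the gene, with matches in capitals: that of Ifi35, the one member that fell and held a motif, and, picked after their values were seen, those of Ifit1, which had 2 ISRE cores and was lower without passing, and of Ifitm3, which had 2 and stayed nearly level. In Ifi35 the STAT letters begin 7 bases after the start. In Ifit1 the ISRE cores, on the opposite strand, begin 104 and 85 bases before it. In Ifitm3 they begin 2 and 19 bases after it, and its STAT letters, which begin 13 bases after it, overlap the second core. The windows are chr11:101448162-101448461 on the plus strand, chr19:34640639-34640938 on the plus strand and chr7:141010695-141010994 on the minus strand of GRCm38.p6.
Ifi35: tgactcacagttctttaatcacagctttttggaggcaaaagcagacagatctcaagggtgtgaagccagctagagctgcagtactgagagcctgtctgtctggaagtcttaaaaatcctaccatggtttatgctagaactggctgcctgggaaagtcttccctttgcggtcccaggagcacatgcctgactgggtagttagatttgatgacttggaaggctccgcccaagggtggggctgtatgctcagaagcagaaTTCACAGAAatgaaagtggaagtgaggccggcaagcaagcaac
Ifit1: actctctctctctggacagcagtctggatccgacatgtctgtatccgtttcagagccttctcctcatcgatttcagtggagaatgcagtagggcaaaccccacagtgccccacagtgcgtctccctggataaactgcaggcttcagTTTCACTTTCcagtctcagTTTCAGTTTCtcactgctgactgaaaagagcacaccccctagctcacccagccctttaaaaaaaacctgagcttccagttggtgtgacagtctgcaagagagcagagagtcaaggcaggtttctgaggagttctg
Ifitm3: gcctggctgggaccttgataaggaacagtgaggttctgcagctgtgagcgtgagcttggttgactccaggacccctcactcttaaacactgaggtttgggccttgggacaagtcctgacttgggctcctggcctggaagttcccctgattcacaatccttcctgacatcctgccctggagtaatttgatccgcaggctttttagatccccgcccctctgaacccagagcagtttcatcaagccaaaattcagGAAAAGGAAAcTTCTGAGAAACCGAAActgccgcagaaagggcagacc

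The pathway above and around these genes was described through 4 further lists, drawn up with earlier results of these data known, so nothing is read from their counts beside the 1.38% of all tested genes called lower and the 0.456% called higher. Upstream, in the list of sensing, 1 of 12 tested genes fell and 0 rose. This was Cgas, the sensor of cytoplasmic DNA, at 437, 384 and 449 against 236, 217 and 261 (−0.83 ± 0.11 SE, limma adjusted p = 0.0457). A second Cgas probe set was lower on all mimic arrays without passing (limma adjusted p = 0.308). The adaptor Mavs, through which RIG-I and MDA5 signal, and the kinase gene Tbk1 were level, at 1266 ± 170 against 1290 ± 238 and 1231 ± 62.0 against 1210 ± 71.1 (SD, n = 3 each).

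No interferon gene rose above the filter. Ifnb1, the interferon made first, read 8.16, 2.59 and 25.6 against 23.7, 31.2 and 11.7. Ifna1, Ifna2, Ifna4, Ifna5 and Ifng stayed at or under 21.3 on every array. Signal at this level cannot be told from background, so neither presence nor absence of interferon transcripts is shown in either group.

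Among the receptors, kinases and ISGF3 factors, 2 of 11 tested genes fell and 0 rose, and the list's median was −0.45. Jak2, a kinase of the interferon gamma receptor, read 411, 382 and 433 against 192, 187 and 140.5 (−1.25 ± 0.15 SE, limma adjusted p = 0.0429), and its second probe set was called too (limma adjusted p = 0.0433). Irf9, the DNA-binding subunit of ISGF3, read 363, 297 and 351 against 129, 121 and 136 (−1.38 ± 0.11 SE, limma adjusted p = 0.0277). Ifnar1 (−0.31) and Jak1 (−0.41) were lower on all mimic arrays without passing. Stat2, the STAT that pairs with Irf9, was dim at 44.4 ± 4.03 against 49.7 ± 20.2 (SD, n = 3 each).

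Of 48 tested further interferon-induced genes 9 fell and 0 rose, 0 of them higher at an unadjusted p under 0.05 in limma, and the median was −0.55. They were the immunoproteasome subunit gene Psmb8 (−2.45), the guanylate-binding protein genes Gbp7 (−2.06), Gbp3 (−1.46) and Gbp2 (−1.24), Tdrd7 (−1.10), the peptide-loading gene Tapbp (−1.06), the immunity-related GTPase gene Irgm1 (−0.92), Rnf213 (−0.92) and Parp12 (−0.71), on the log2 scale. Parp12, which like Parp9 and Parp14 belongs to the ADP-ribosyltransferase family, read 2043, 1963 and 2208 against 1180.3, 1354 and 1262. Irgm1 read 830, 799.9 and 809 against 430.5, 426 and 432. Of their further tested probe sets that of Gbp2 was called too, those of Gbp7 and Tapbp were lower on all mimic arrays without passing, and a dim one of Rnf213 overlapped between groups.

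In the list of genes that restrain the pathway 1 of 14 fell, Nlrx1, and 0 rose. Nlrx1 was dim, at 46.7, 42.3 and 59.1 against 12.6, 18.8 and 16.6, and with its mimic values at the filter's intensity of 16 it was tested only through its control arrays. Socs3, a feedback inhibitor of JAK kinases, was level at 5783 and 6129 on average. Counted together these lists, like the members, held no gene called higher by either prior.

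**Figure D5:**
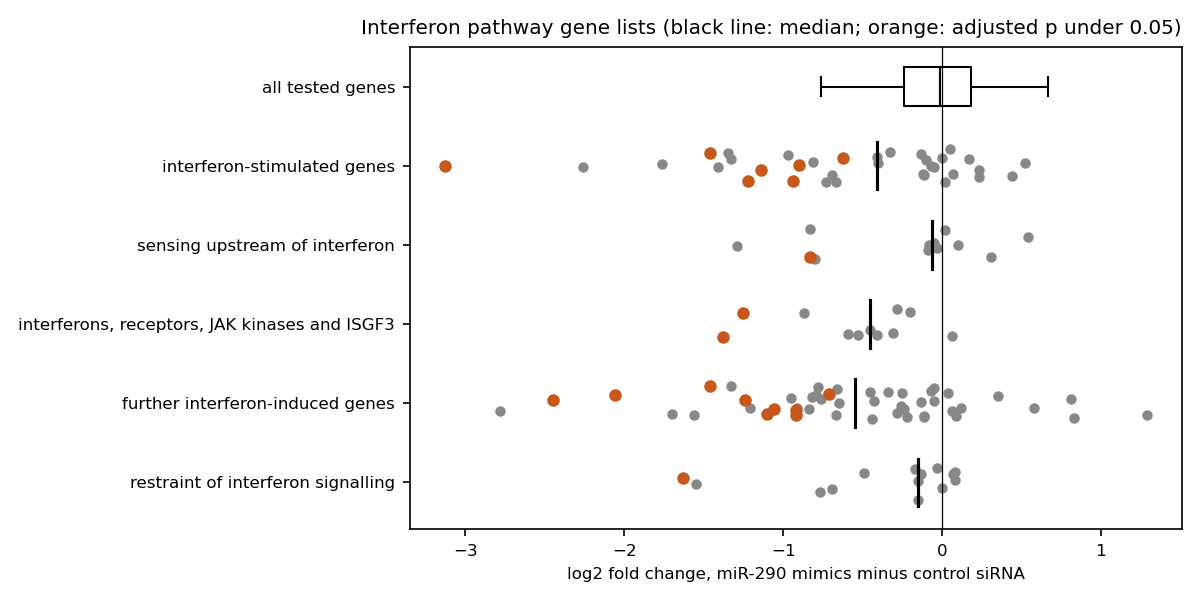
Log2 fold change (horizontal axis) of each tested gene in the interferon-stimulated set and 4 further lists, with all tested genes as a box (quartiles, median, and whiskers to percentiles 5 and 95). Black bars are medians, −0.41 for the interferon-stimulated genes, −0.06, −0.45, −0.55 and −0.15 for the lists in the order drawn, and orange points passed the test.

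Markers of the cells themselves were checked beside these values. The 8 embryonic stem cell markers had control means from 1536 to 35385, and 1 of them, Lin28a, was called, upward. With the level-dependent robust prior 3 were called higher, Esrrb (0.23) and Utf1 (0.21) besides Lin28a. Zfp42 was higher on all mimic arrays without passing under either prior (0.12). The summed intensity of the 8 markers was 92872 to 101230 in the controls and 101392 to 107973 with the mimics. The fibroblast list, for feeder cells, summed to 427 to 454 against 383 to 466, and Col1a1, Col1a2, Col3a1 and Postn were below the filter. Within that list Dcn was lower (−0.90) and Pdgfrb higher (0.43) on all mimic arrays, neither passing. Of 7 macrophage and leukocyte markers with a probe set 5 were tested, and 0 of the 5 were called. The leukocyte-defining Ptprc, below the filter, was at 9.08 ± 7.83 against 7.70 ± 4.65 (SD, n = 3 each). That list summed to 4020 to 4068 against 3520 to 3622, the same direction as the members, through Laptm5 and Cd68. These genes were each lower on all mimic arrays (Cd68 was called only with the level-dependent robust prior), and their part in the result was not tested. In the other direction, Itgam, below the filter, was higher on all mimic arrays (8.45 against 24.1 on average). Cd3e was at 0.63 with overlapping groups. The 4 endothelial markers summed to 847 to 1044 against 777 to 925. Across arrays the median intensity was 41.7 to 44.9, between 28.5% and 30.1% of probe sets read under 16, and the log2 values correlated at 0.963 to 0.969 within and 0.959 to 0.964 between groups, so no array stood apart.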

How the data were processed

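Total RNA was labelled as biotinylated cRNA and measured on arrays; the label protocol is Affymetrix's, per the labels. The deposited values are linear intensities, although the submitters' processing notes name GCRMA, which usually gives log2 values; each array's mean without the lowest and highest 2% is 500, a scaling that MAS 5.0 applies. Which software made the values, its background correction and its detection calls are not given in the sources used here, so values near the floor have no measured order.

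Intensities were log2-transformed with no offset and not normalized again. Genes were named through the platform's annotation, as probe sets with 1 symbol. Control probe sets and those with a mean log2 under 4 were left out, and 29167 entered limma 3.58.1 under R 4.3.3 (constant prior variance, 2-sided, Benjamini-Hochberg adjustment). Intervals are limma's 95% intervals of the log2 difference. The script was tested on simulated arrays. Members, lists and tests were chosen with earlier results of these data known. All members are named; of each pathway list the genes past the threshold are named, cell type markers are given as counts and ranges, and other genes named were chosen after their values were seen. Alternatives were the normalization, centring, offset, filter, prior variance, replicate block, arrays left out and averaging over the probe sets of 1 gene. The number of arrays limits the precision.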

Additional observations from a re-analysis of the deposited data

How the results depend on the processing

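The counts of calls depended on the settings, and the directions of the called genes did not under any alternative run. Of the member probe sets 9 were called lower in the standard setting. The count was 5 with median centring, 17 where the filter was set at 6 (mean log2), and 20 with the level-dependent robust prior; over all probe sets these settings called 153, 2373 and 3293, against 376 in the standard one, so the members' counts moved with the array-wide ones. It was 0 with no filter (23 lower at an unadjusted p under 0.05 in limma), and the cause was not tested; it was 0 with 1 array left out (20 to 24 lower and 0 to 1 higher, unadjusted), with fewer samples. With the replicate number as a block it was also 0 (23 unadjusted), with fewer residual degrees of freedom. Deviations from the group means were hardly correlated between same-numbered arrays (−0.006, 0.012 and 0.024). Values near 0 cannot show whether the numbers pair the samples, which the sample titles do not state. Over all probe sets 0 or 1 were called in these settings. With the level-dependent robust prior and 1 array left out, a setting chosen after seeing the data, the counts were 18, 16, 16, 17, 16 and 19. Averaging over probe sets ended the calls of Zbp1 (limma adjusted p = 0.113) and Parp14 (0.192). Quantile normalization kept 7 of the 9 calls, and that of Parp14 was among those it ended (limma adjusted p = 0.0577). With quantile normalization 7 and with the offset of 16 13 were lower. No member probe set was called higher under any of these settings, with 0 to 2 higher at an unadjusted p under 0.05 in limma. The median log2 fold change of the member genes lay between −0.66 (without control replicate 2) and −0.38 when arrays were left out, and between −0.52 and −0.37 under the other alternatives; the cause of the shift without control replicate 2 was not tested. Rtp4, Irf7, Sp100, Usp18, Ifit3, Oasl2 and Dhx58 have values near the floor, where signal limits what can be measured.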
